A study of Mus musculus with 137 samples.

Results

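The 10 genes followed here encode the receptor complex for lipopolysaccharide and the Toll-like receptors (TLRs) next to it. They are Tlr4, Cd14 and Ly96, whose products bind lipopolysaccharide (LPS), Tlr1, Tlr2 and Tlr6, which sense bacterial lipopeptides, Tlr7 and Tlr9, which sense nucleic acids in endosomes, and the adaptors Myd88 and Tirap. They were taken by symbol, and 10 of 10 were found among the 34573 gene symbols of each of the 3 count tables. Tlr3 and other members of the receptor family are not among the 10 and are described with the pathway lists below.

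The study measured RNA of bone marrow-derived macrophages (BMDMs) by Smart-Seq2 in 137 libraries of 3 mouse cohorts, after 0, 6 and 24 h with LPS and interferon-gamma (IFN-gamma) at 100 ng/ml each. In cohorts KO1 and KO2, Beclin1flox/flox-LysM-Cre+ cells (KO) were compared with Beclin1flox/flox-LysM-Cre- cells (WT), so that both carry the floxed alleles of the autophagy gene Becn1. In cohort KI, Beclin1F121A/F121A cells (F121A) were compared with littermate WT cells. Macrophages were obtained from marrow of mice aged 7 weeks, over 7 days in culture in which M-CSF was supplied at 20 ng/ml, and were replated before stimulation. LysM-Cre is driven by the lysozyme locus of myeloid cells, so that deletion is limited to cells in which the driver has acted. KO1 has 3 numbered samples per group (S33 to S35 in WT, S36 to S38 in KO, each at all 3 times), called cultures here although the labels do not say what the number marks, each with 3 repeat libraries that were summed, KO2 has 8 libraries per group and 7 in WT at 24 h, and KI has 6. The labels do not say whether libraries of KO2 and KI came from separate mice or cultures, so the p-values may measure technical spread only. A repeat of KO1 culture S38 and WT library 1 of KI are titled 6 h but described as 24 h; they were kept at 6 h, and results they decide are also given without them.

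As background, CD14 passes LPS to MD-2, the product of Ly96, which sits on TLR4. The complex signals from the cell surface through TIRAP and MyD88 to NF-kB, and from endosomes through other adaptors to interferon genes. TLR2 pairs with TLR1 or TLR6 at the surface, whereas TLR7 and TLR9 signal from endosomes, also through MyD88. Beclin 1 works in the lipid kinase complexes of autophagy and endosome traffic.

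Counts in genes per library ran from 1898574 to 6579185 in KO1, from 1448218 to 15627379 in KO2 and from 3574158 to 11786453 in KI. Levels are given as scaled CPM, a gene's CPM with the library total scaled by TMM within a cohort, so levels of different cohorts are set side by side without a test. Becn1 was at 11.2 and 3.36 scaled CPM in resting KO cells of KO1 and KO2, against 31.9 and 32.9 in WT cells, and at 28.6 in F121A against 30.2 in WT cells (group means). All 8 macrophage markers averaged above 1 CPM in each cohort over the 3 times together, but group means of Mrc1 at 24 h were only 0.0518 to 0.331 CPM. In KO2 the sexes differ between genotypes: resting KO cells averaged 0.515 scaled CPM of Xist and 11.4 of Ddx3y, against 172 and 0.130 in WT cells. Every KO2 comparison of genotypes is therefore also one of sexes, and these cannot be told apart; for every member, fewer cells of a type and less RNA per cell cannot be told apart in these bulk samples.

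RefSeq promoters (GRCm38.p6, the 250 bases before a start) were at hand for Tlr1, Tlr2, Tlr6, Tlr9, Myd88 and Tirap. They were searched on both strands for 4 motifs. These are the motif of NF-kB, the ISRE bound by the interferon factors ISGF3 and IRFs (GAAA repeated after a gap of any 2 bases), the GAS element bound by STAT dimers (TTCNNNGAA), and the box of the basal machinery, here called TATA, with the letters TATAAA. Stretches of the promoters of Tlr2, Tlr6 and Myd88 that lie outside GENCODE exons are shown, because Myd88 and Tlr6 were higher at 6 h than at 0 h in every group, Tlr2 behaved differently in each cohort, and each holds a match. They run 5′ to 3′ on the minus strand, with matches in capitals.
Tlr2: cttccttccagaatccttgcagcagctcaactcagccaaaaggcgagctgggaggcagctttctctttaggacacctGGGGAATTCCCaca
Tlr6: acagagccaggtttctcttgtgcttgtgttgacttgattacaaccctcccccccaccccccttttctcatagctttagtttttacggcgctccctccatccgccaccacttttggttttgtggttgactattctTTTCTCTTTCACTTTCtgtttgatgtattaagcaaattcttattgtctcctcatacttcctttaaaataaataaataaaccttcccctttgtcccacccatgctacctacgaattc
Myd88: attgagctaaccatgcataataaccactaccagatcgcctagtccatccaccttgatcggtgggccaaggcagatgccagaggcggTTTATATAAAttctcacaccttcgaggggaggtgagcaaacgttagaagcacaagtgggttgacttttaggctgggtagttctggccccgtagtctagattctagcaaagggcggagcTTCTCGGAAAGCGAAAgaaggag
The Tlr2 stretch (chr3:83841768-83841858) holds the NF-kB motif on both strands, at base -172 from the start. The Tlr6 stretch (chr5:64959167-64959416) precedes the first of its RefSeq starts and holds a pair of overlapping ISRE matches on the opposite strand, with first bases at -116 and -110. The Myd88 stretch (chr9:119340042-119340268) holds TATA on both strands at -164 and -160, a GAS at -46 that reads on both strands, and an ISRE at -40 that overlaps it. The Tlr6 and Myd88 stretches lie inside the span of the GENCODE gene and between its exons. A second Tlr1 start has a GAS at -228, a second Tlr6 start has 3 TATA matches, and the first Tlr1 promoter and those of Tlr9 and Tirap hold none of the 4. Of 32851 promoters of this length, 7.25% hold the NF-kB motif, 2.98% an ISRE, 7.02% a GAS and 12.4% a TATA match; a match is a description of the letters and not a bound site.

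The members lie on 7 mouse chromosomes (GENCODE vM21, GRCm38). Tlr1 (chr5:64924679-64933563) and Tlr6 (chr5:64952031-64960097) are neighbours on the minus strand, and Tlr9 (chr9:106222598-106226883, plus strand), Myd88 (chr9:119335934-119341411, minus) and Tirap (chr9:35184551-35200291, minus) share a chromosome. The others are Tlr2 (chr3:83836272-83841767, minus), Tlr4 (chr4:66827584-66930284, plus), Tlr7 (chrX:167304929-167330558, minus), Cd14 (chr18:36725067-36726798, minus) and Ly96 (chr1:16688051-16709611, plus). Of the 38-base windows of its transcripts, Tlr1 shares 18.3% with other genes and Tlr6 14.9%, and 545 windows are common to Tlr1 and Tlr6, so the split of reads between them is uncertain. Without strand information, reads from the 290 bp that Myd88 shares with Acaa1a and from the 446 bp that Tirap shares with the antisense gene Gm39318 cannot be assigned either. These stretches are 11.3% and 9.05% of the exon length of Myd88 and Tirap.

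At rest, Cd14 RNA stood above every other member. Per kilobase of exon it averaged 526, 244 and 433 scaled CPM in mutant cells of KO1, KO2 and KI, against 409, 292 and 467 in WT cells. Tlr2 came second in both genotypes of KI, at 69.4 scaled CPM per kilobase in F121A and 73.1 in WT cells. In KO2 it was at 14.9 in KO cells, beside Myd88 at 15.1, and at 19.5 in WT cells. WT cells of KI held Myd88 at 16.7, Tlr4 at 13.5, Tlr7 at 12.8 and Ly96 at 5.36 scaled CPM per kilobase. WT cells of KO2 also held Myd88 at 14.1, Ly96 at 9.35, Tlr4 at 3.43 and Tlr7 at 2.57. Tlr1, Tlr6, Tlr9 and Tirap were at the low end, between 0.939 (Tlr9) and 2.60 (Tirap) in WT cells of KO2 and KI. In WT cells of KO1, the means of Tlr7, Tlr2, Tlr4 and Myd88 (16.3, 15.4, 13.1 and 12.1 scaled CPM per kilobase) lay close together, and the 3 cultures of Tlr7 alone ran from 33.5 to 99.4 scaled CPM, so their order is not set apart from the spread.

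**Figure D1:**
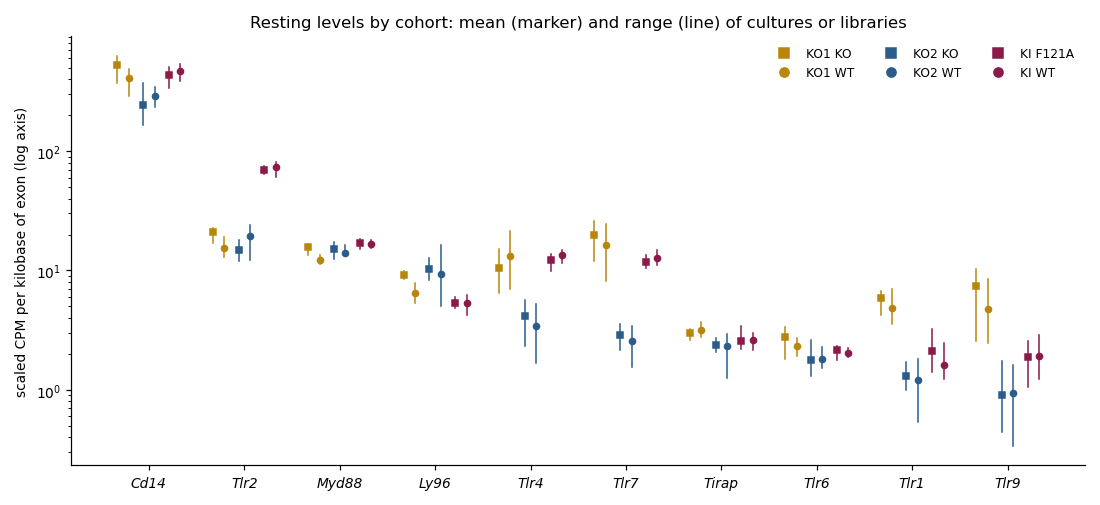
Resting levels of the 10 members per kilobase of exon in scaled CPM (log axis), by cohort, with mutant and WT cells side by side; squares (mutant) and circles (WT) are means and lines run from the lowest to the highest library (KO1: culture). Cd14 lies above the other members in every group.

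Stimulation moved most members in WT and in mutant cells. At 6 h against 0 h, 8, 9 and 10 of 10 members passed the test in mutant cells of KO1, KO2 and KI, beside 55.3%, 74.4% and 74.5% of all genes tested. In WT cells 8, 7 and 10 passed, beside 56.7%, 70.8% and 73.5% of all genes. At 24 h against 0 h, 6, 8 and 9 members passed in mutant cells (all genes 38.5%, 58.2% and 66.3%) and 7, 7 and 9 in WT cells (all genes 41.9%, 59.1% and 63.8%). At 24 h against 6 h the counts were 7, 9 and 7 in mutant cells (all genes 48.1%, 55.6% and 65.1%) and 6, 9 and 9 in WT cells (all genes 54.6%, 59.1% and 65.4%). The members' median log2 fold change in WT cells at 6 h was 1.58, 1.80 and 0.95 in KO1, KO2 and KI, against -0.09, -0.11 and 0.0044 over all genes. A gene passes, or is called, at an adjusted p under 0.05 in edgeR's quasi-likelihood test, Benjamini-Hochberg adjusted over all genes. Values after ± are standard errors for log2 fold changes. How often the ranges of groups did not overlap was not counted over all genes, so such separation of a member is given as a description only.

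The direction of smaller changes with time rests on the scaling. With library totals alone in place of TMM, the median of all genes in the contrasts against 0 h moves by -0.44 to -1.29 on the log2 scale, so changes here are relative to the median gene. Under both scalings, Myd88 was higher at both times, Cd14 at 24 h and Tlr1 and Tlr6 at 6 h in every group, and Tlr4 was lower in KO1 and KI. The median of Cd14 was higher at 6 h than at rest under both scalings in every group but F121A, but not in every unit. By library totals, the lowest KO1 KO culture was at 1229 CPM at 6 h, below the lowest at rest (1343). In KI WT cells the lowest library at 6 h (1495 CPM) lay below the highest at rest (1535). With library totals alone, F121A cells had a median Cd14 CPM of 1348 at 6 h and 1381 at rest (means 1360 and 1278).

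**Figure D2:**
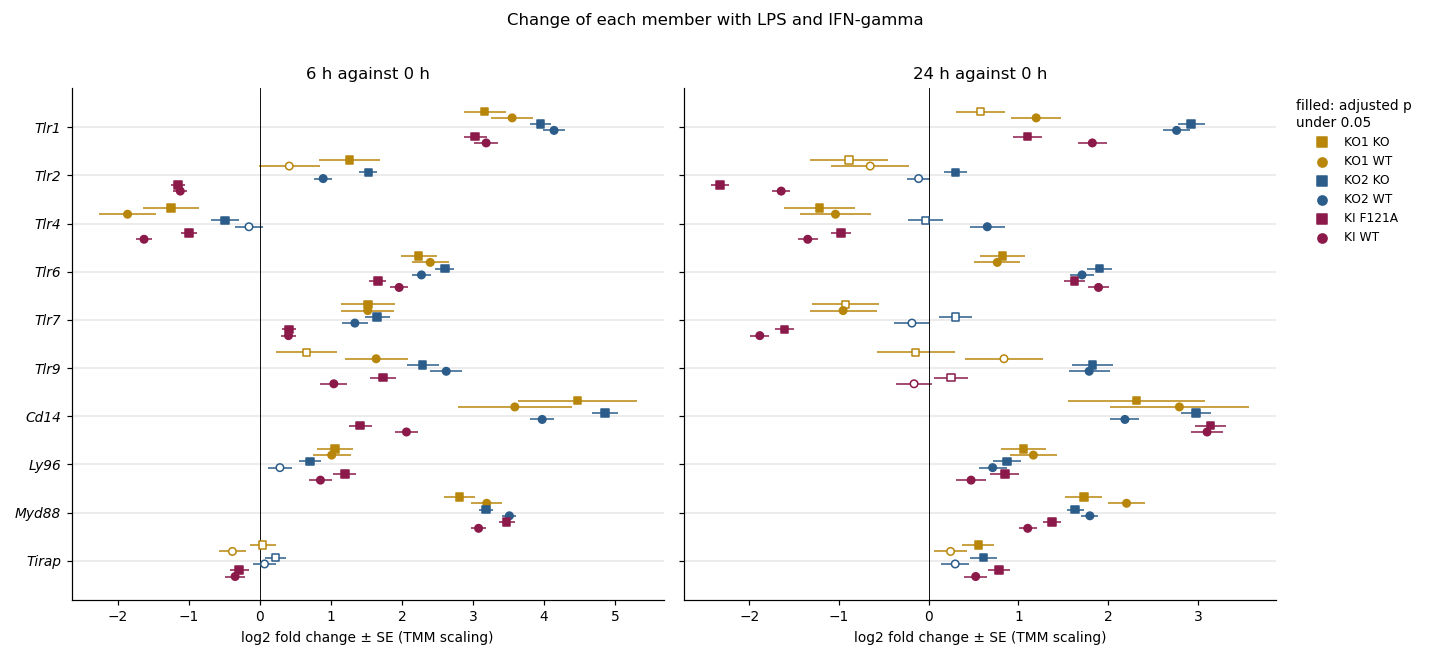
Log2 fold changes of the 10 members at 6 h and at 24 h against 0 h with standard errors, in mutant and WT cells of each cohort; filled symbols have an adjusted p under 0.05. Tlr1, Tlr6, Cd14 and Myd88 lie right of 0 in every group at 6 h; with library totals alone, the signs of Ly96, Tirap, Tlr7, Tlr9, Tlr2 and, at 24 h, Tlr1 and Tlr6 turn in some groups.

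Of the LPS receptor genes, Cd14 rose most. In KO2 its median scaled CPM at 0, 6 and 24 h was 399.9, 12213 and 2692 in KO cells and 489, 7567 and 2449.9 in WT cells. In KI the medians were 755, 1974 and 6521 in F121A cells and 834, 3568 and 6841 in WT cells. Cd14 thus peaked at 6 h in KO2 and was highest at 24 h in KI, with log2 fold changes at 24 h against 6 h of -1.78 ± 0.16 in KO2 WT and 1.04 ± 0.16 in KI WT cells (adjusted p = 3.11e-14 and 4.17e-07). The 24 h to 6 h change was not tested between cohorts. In WT cells the log2 fold change at 6 h was 3.59 ± 0.80, 3.97 ± 0.17 and 2.06 ± 0.17 in KO1, KO2 and KI, and at 24 h 2.79 ± 0.77, 2.19 ± 0.16 and 3.10 ± 0.17, all 6 called.

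Tlr4, the signalling subunit, did not follow Cd14. Its median scaled CPM at 0, 6 and 24 h was 67.7, 32.7 and 33.8 in F121A cells and 76.7, 24.2 and 30.2 in WT cells of KI, and every stimulated library lay below every resting one. In KO2 the medians were 23.1, 17.3 and 21.8 in KO and 19.7, 18.95 and 29.5 in WT cells, and the ranges of all 3 times overlapped. In WT cells Tlr4 fell at 6 h in KO1 and KI (-1.86 ± 0.41 and -1.63 ± 0.12), and was -0.15 ± 0.20 in KO2 (adjusted p = 0.508). At 24 h it was -1.04 ± 0.39, 0.65 ± 0.19 and -1.35 ± 0.11 in WT cells of KO1, KO2 and KI, lower in KO1 and KI and higher in KO2, all called; with library totals alone the KO2 value is 0.22 and not called. Ly96, which encodes MD-2, rose modestly in WT cells at 24 h, by 1.17 ± 0.26, 0.71 ± 0.16 and 0.47 ± 0.16, all called; with library totals alone the KI value turns to -0.40 and the other values are 0.14 and 0.29. At 6 h its log2 fold change was 1.01 ± 0.27, 0.28 ± 0.17 and 0.85 ± 0.17, called in KO1 and KI, and it turns negative in all 3 cohorts with library totals alone (-0.012, -0.53 and -0.34).

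The lipopeptide receptors split. Tlr1 and Tlr6 rose at 6 h in all 6 cohort and genotype groups and Tlr1 fell back at 24 h against 6 h in all 6, as Tlr6 did in KO1 and KO2. Tlr1 medians at 0, 6 and 24 h were 4.39, 71.3 and 35.4 scaled CPM in KO and 3.98, 68.2 and 27.8 in WT cells of KO2, and 6.65, 56.6 and 14.2 in F121A and 5.02, 48.8 and 17.2 in WT cells of KI. At 6 h no stimulated library overlapped a resting one for Tlr1 or Tlr6 in any group. In WT cells Tlr1 rose by 3.55 ± 0.30, 4.14 ± 0.15 and 3.18 ± 0.16 and Tlr6 by 2.40 ± 0.26, 2.27 ± 0.14 and 1.96 ± 0.12 at 6 h. Tlr6 differed in KI, where its medians at 0, 6 and 24 h were 8.27, 24.6 and 24.5 in F121A and 7.54, 28.2 and 28.4 in WT cells, so that the 6 h level was held at 24 h. At 24 h Tlr6 was 0.76 ± 0.25, 1.71 ± 0.14 and 1.89 ± 0.12 in WT cells, all called, and its KO1 value turns to -0.27 with library totals alone.

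Tlr2, the shared partner of both, started from different levels and moved in different directions. Its resting scaled CPM ran from 194 to 226 in F121A and from 184 to 244 in WT cells of KI, and from 36.2 to 53.95 in KO and 37.1 to 71.8 in WT cells of KO2. In WT cells at 6 h Tlr2 rose in KO2 (0.89 ± 0.13), fell in KI (-1.12 ± 0.10) and did not pass in KO1 (0.41 ± 0.43); with library totals alone the KO2 value is 0.066 and not called. By 24 h Tlr2 in WT cells of KI was at -1.64 ± 0.10 on the log2 scale against rest, with medians of 224, 99.5 and 66.5 scaled CPM at 0, 6 and 24 h.

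Of the endosomal receptors, Tlr7 rose at 6 h and had fallen below rest at 24 h in KO1 and KI WT cells. Its log2 fold change in WT cells was 1.52 ± 0.38, 1.34 ± 0.18 and 0.40 ± 0.10 at 6 h, all called, with the KI value turning to -0.80 with library totals alone. At 24 h it was -0.95 ± 0.37, -0.19 ± 0.20 and -1.88 ± 0.11, called in KO1 and KI. Tlr9 rose in WT cells at 6 h by 1.64 ± 0.44, 2.62 ± 0.22 and 1.04 ± 0.19, all called, and here too the KI value turns, to -0.16. At 24 h Tlr9 was 0.84 ± 0.44, 1.79 ± 0.23 and -0.16 ± 0.20 in WT cells and passed in KO2 alone. KO1 held more Tlr9 RNA than the other cohorts at 6 h, with 32.7, 54.99 and 33.1 scaled CPM in the 3 KO cultures and 65.4, 45.5 and 42.00 in the 3 WT cultures, a difference between cohorts that was not tested.

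The adaptors differed from each other. Myd88, through which all the TLRs of this group signal, rose in every group, and no library at 6 h overlapped one at 0 h or 24 h. Its medians at 0, 6 and 24 h were 38.8, 365 and 123 scaled CPM in KO and 35.5, 415 and 119 in WT cells of KO2, and 43.98, 488 and 109.5 in F121A and 42.5, 369 and 90.3 in WT cells of KI. The log2 fold change in WT cells was 3.19 ± 0.22, 3.51 ± 0.10 and 3.08 ± 0.11 at 6 h and 2.20 ± 0.21, 1.80 ± 0.10 and 1.10 ± 0.10 at 24 h. Tirap, which bridges MyD88 to TLR2 and TLR4, stayed within 6.23 to 25.9 scaled CPM over all units. In WT cells its log2 fold change was -0.39 ± 0.19, 0.065 ± 0.16 and -0.35 ± 0.14 at 6 h and 0.24 ± 0.18, 0.29 ± 0.15 and 0.52 ± 0.13 at 24 h, called in KI alone, and with library totals alone the 24 h values of KO1 and KI turn to -0.78 and -0.36.

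Several WT calls of KO1 against 0 h rest on single cultures. At 6 h, without S33, Ly96 and Tlr9 were no longer called (adjusted p = 0.0679 and 0.0918). At 24 h Tlr4 was lost without S33, S35 or S38 (0.147, 0.481 and 0.0636), Tlr6 without S33 or S35 (0.124 and 0.0759), and Tlr7 without S33, S35, S36 or S38 (0.217, 0.121, 0.0701 and 0.0750). Tlr9 at 24 h, not called with all cultures, passed without S35 or S37 (0.0109 and 0.0396). Without S36, 2 members were called in KO cells at 24 h in place of 6, and without S33, 4 in WT cells in place of 7. With the culture number as a block, Tlr4 in WT cells at 24 h against 0 h was no longer called (0.0636), and in KO cells Tlr1, Tlr2 and Tlr7 were called (0.0399, 0.0356 and 0.00187), giving 9 members in place of 6.

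**Figure D3:**
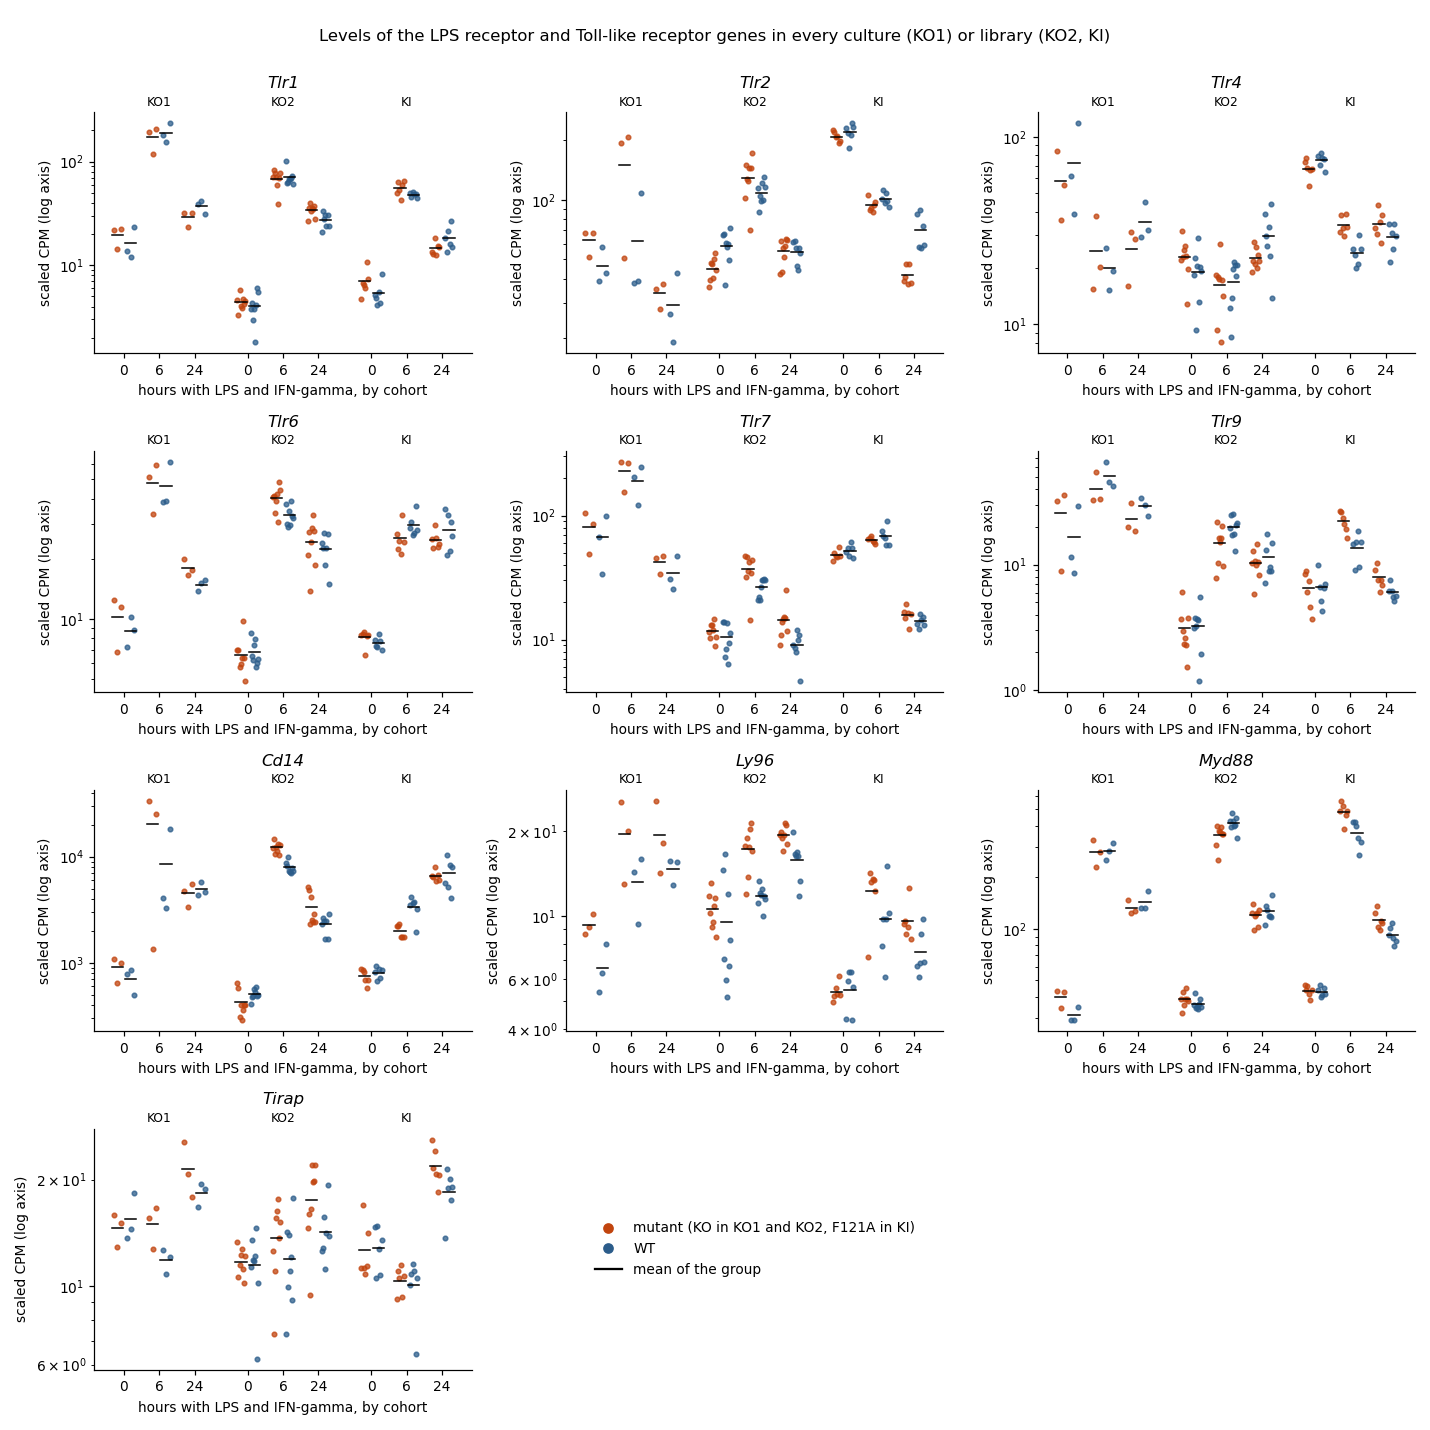
Scaled CPM (log axis) of the 10 members at 0, 6 and 24 h in mutant and WT cells of the 3 cohorts; points are libraries (KO1: cultures) and short bars are group means. Cd14 peaks at 6 h in KO2 and is highest at 24 h in KI, and F121A Tlr2 lies below WT at 24 h.

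In KO1 no member passed the test between KO and WT cells. KO cells were at 33518, 1341 and 25544 scaled CPM of Cd14 at 6 h in cultures S36, S37 and S38, against 4082, 3316 and 18153 in WT cultures S33, S34 and S35. Tlr2 at 6 h was 193, 51.03 and 207 scaled CPM in the KO cultures, against 37.8, 38.9 and 109 in the WT cultures. For both genes S37 stood apart below the other KO cultures and S35 above the other WT cultures, and the groups overlapped. The log2 fold changes were 1.24 ± 0.73 for Cd14 and 1.28 ± 0.44 for Tlr2 (adjusted p = 0.997 and 0.977); with no filter on low counts and with voom on single libraries, Tlr2 was called (0.000252 and 0.0157, within a range of 0.000252 to 1 over all alternatives).

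At 0 h, Ly96 was 8.63, 9.16 and 10.2 scaled CPM in the KO1 KO cultures, against 5.40, 6.28 and 7.99 in the WT cultures, without overlap, and its log2 fold change of 0.51 ± 0.26 did not pass (adjusted p = 0.834). Tirap at 6 h (15.5, 12.8 and 16.7 in KO, against 12.6, 10.8 and 12.1 in WT) and Tlr6 at 24 h (20.03, 16.5 and 17.6 in KO, against 13.8, 15.1 and 15.7 in WT) did not overlap either and were not called. With so few cultures per group, such separation can arise by chance, and how often it occurred over all genes was not counted. No genotype difference is read from the separation of Ly96, Tirap or Tlr6. At 0, 6 and 24 h, edgeR called 0 of 10 members, beside 0.0219%, 0.0219% and 0.0073% of all genes. At an unadjusted p under 0.05 the counts were 0, 2 and 0, with DESeq2 0, 0 and 0 and with voom 0, 1 and 0. The summed neutrophil markers (12 genes, 4 with a mean below 1 CPM) ran from 425 to 1473 CPM in resting KO cultures, against 259 to 317 in WT cultures, and plasmacytoid dendritic cell markers (6 genes, 4 with a mean below 1 CPM) from 87.1 to 120.6, against 69.9 to 76.4. At 24 h, beside Tlr6, macrophage markers ran from 8046 to 10693 CPM in KO cultures, against 15062 to 17821 in WT cultures, and without Lyz2 from 5410.0 to 7395, against 9339 to 9604. Of these others, Emr1 (3790 against 6893), Csf1r (859 against 1236) and Mertk (113 against 138) had a lower mean CPM in KO cultures. Cd68 (246 against 218), Fcgr1 (1022 against 890), Itgam (142 against 138) and Mrc1 (0.324 against 0.206) had a higher one. The part of these markers in the member values was not tested.

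In KO2, Cd14 and Tlr7 were higher in KO cells at 6 and 24 h, Ly96 at 6 h, and Tlr2 was lower at rest. Cd14 at 6 h had a lowest, median and highest scaled CPM of 10349.6, 12213 and 14798 in KO cells, against 7027, 7567 and 9882 in WT cells. At 24 h the values were 2303, 2692 and 5131 in KO cells, against 1666, 2449.9 and 2869 in WT cells. The genotypes did not overlap at 6 h and overlapped at 24 h, when 5 of 8 KO libraries lay above the WT median and 3 below it. KO libraries 1, 2 and 5 were at 5131, 4821 and 4138 scaled CPM at 24 h, and the other KO libraries lay below the highest WT library. The log2 fold changes were 0.63 ± 0.15 and 0.53 ± 0.16 (adjusted p = 0.00232 and 0.0172), with -0.26 ± 0.15 at rest (adjusted p = 0.363).

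Ly96 at 6 h had a lowest, median and highest level of 12.01, 17.6 and 21.3 scaled CPM in KO cells, against 10.03, 11.8 and 13.3 in WT cells, with a log2 fold change of 0.55 ± 0.16 (adjusted p = 0.0134). Ranges overlapped between the lowest KO and the highest WT libraries. Tlr4, the third gene of the complex, did not pass at any time (0.27 ± 0.19, -0.065 ± 0.21 and -0.42 ± 0.19 at 0, 6 and 24 h).

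Tlr7, which is X-linked, was 14.5, 38.96 and 47.5 scaled CPM in KO cells at 6 h (lowest, median and highest), against 20.8, 28.4 and 30.6 in WT cells. At 24 h it was 9.10, 14.3 and 25.3 in KO cells, against 4.61, 9.002 and 11.8 in WT cells. Both pairs of ranges overlapped. The log2 fold changes were 0.48 ± 0.17 and 0.65 ± 0.20 (adjusted p = 0.0482 and 0.0178). The 6 h call sat at the threshold and was lost under 5 alternatives, among them DESeq2 (0.0540; range over alternatives 0.00187 to 0.0734). The 24 h call was lost with library totals alone (0.0694) and with libraries summed by number (0.0703). Without KO library 7 at 6 h and KO library 8 at 24 h, which lay farthest from their groups, the log2 fold changes were 0.60 and 0.49 (adjusted p = 0.00187 and 0.0436). In that fit Tlr2 (0.34) and Myd88 (-0.26) also passed at 6 h, giving 5 members called in place of 3.

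Resting Tlr2 in KO2 was 36.2, 45.7 and 53.95 scaled CPM in KO cells, against 37.1, 60.04 and 71.8 in WT cells, with overlap and a log2 fold change of -0.39 ± 0.13 (adjusted p = 0.0430). With library totals alone it was -0.20 (adjusted p = 0.343) and no longer called. In all, 1 of 10 members was called at 0 h, 3 at 6 h and 2 at 24 h, beside 8.35%, 15.3% and 11.3% of all genes. The members' median log2 fold change was 0.066, 0.22 and 0.21, against 0.012, 0.024 and -0.018 over all genes. Summed monocyte markers (6 genes, 1 with a mean below 1 CPM) ran from 15.03 to 25.5 CPM in KO cells at rest, against 6.001 to 11.8 in WT cells, from 96.9 to 145 at 6 h, against 75.7 to 138, and from 30.1 to 45.7 at 24 h, against 14.3 to 23.7. Of the macrophage markers, Lyz2, the gene that carries the LysM-Cre insertion, ran from 4638 to 5719 CPM in KO cells at 6 h, against 12874 to 17616 in WT cells. The other 7 macrophage markers summed to 2339 to 4246 CPM in KO cells at 6 h, against 2963 to 4424 in WT cells. Of these others, Cd68 (918 against 674) and Mertk (141 against 103) had a higher mean CPM in KO cells. Emr1 (1102 against 1628), Csf1r (529 against 592), Fcgr1 (705 against 826), Itgam (74.2 against 97.3) and Mrc1 (4.84 against 7.34) had a lower one. The part of these markers and of sex in the member values was not tested.

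In KI, Cd14 was lower and Tlr4, Tlr9 and Myd88 higher in F121A cells at 6 h, and Tlr2 was lower at 24 h. At 6 h Cd14 was lower in F121A cells, with a lowest, median and highest scaled CPM of 1738, 1974 and 2328, against 1938, 3568 and 4204 in WT cells. F121A libraries 1, 2 and 3 were at 2207, 2211 and 2328, and libraries 4, 5 and 6 at 1738, 1742 and 1741. Tlr4 was higher, at 29.8, 32.7 and 38.9 in F121A cells, against 19.9, 24.2 and 30.1 in WT cells. The ranges of both genes overlapped. The log2 fold changes were -0.76 ± 0.16 for Cd14 and 0.49 ± 0.12 for Tlr4 (adjusted p = 0.000995 and 0.00400), so that the complex's genes moved in opposite directions, with Ly96 at 0.32 ± 0.16 and not called.

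Tlr9 and Myd88 were also higher in F121A cells at 6 h. Tlr9 was 16.3, 22.3 and 26.7 scaled CPM in F121A cells (lowest, median and highest), against 9.05, 14.8 and 18.5 in WT cells. Myd88 was 385, 488 and 559 in F121A cells, against 271, 369 and 424 in WT cells. The ranges of both genes overlapped. The log2 fold changes were 0.68 ± 0.18 and 0.42 ± 0.10 (adjusted p = 0.00985 and 0.00316), and with libraries summed by number Tlr9 was no longer called (0.0823; range over alternatives 0.00297 to 0.0823).

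Tlr2 gave the members' smallest p between genotypes. At 24 h it was 37.7, 39.8 and 47.3 scaled CPM in F121A cells (lowest, median and highest), against 57.3, 66.5 and 88.5 in WT cells, without overlap. The log2 fold change was -0.76 ± 0.10 (adjusted p = 8.86e-07), lower in 6 of 6 F121A libraries, with -0.073 ± 0.094 at rest and -0.11 ± 0.10 at 6 h, neither called. At 24 h WT libraries 1, 3 and 5 were at 85.1, 88.5 and 73.8 scaled CPM, and libraries 2, 4 and 6 at 57.9, 57.3 and 59.1. Cd14 in WT cells split by the same numbers, at 5672, 5220 and 4063 against 10346, 8377 and 8010. Whether such libraries share an origin was not tested, so this p-value may rest on fewer independent units than libraries. Of 10 members, 4 passed at 6 h and 1 at 24 h, beside 11.5% and 7.2% of all genes. At rest edgeR called 0 (all genes 2.94%), with 1 at an unadjusted p under 0.05 and 0 by DESeq2. Of the marker lists at 6 h, plasmacytoid dendritic cell markers (6 genes, 4 with a mean below 1 CPM, Siglech among them) summed to 68.4 to 80.1 CPM in F121A cells, against 50.6 to 66.9 in WT cells, of which Tcf4 averaged 70.4 and 57.1. Conventional dendritic cell markers (6 genes, 2 with a mean below 1 CPM) summed to 15.7 to 20.9 CPM in F121A cells, against 23.4 to 30.6 in WT cells, with Xcr1 at a mean of 8.63 and 15.1. Monocyte markers (6 genes, 2 with a mean below 1 CPM) ran from 161 to 225 CPM in F121A cells at 6 h, against 131 to 171 in WT cells. At 24 h Lyz2 ran from 7324 to 8090.1 CPM in F121A cells, against 10182 to 12476 in WT cells. The other 7 macrophage markers summed to 5493 to 6365, against 5395 to 6811. Of these others, Fcgr1 (455 against 254), Itgam (317 against 258) and Mrc1 (0.139 against 0.0518) had a higher mean CPM in F121A cells. Emr1 (2689 against 2996), Csf1r (2072 against 2198), Cd68 (226 against 237) and Mertk (86.0 against 127) had a lower one. The part of these markers in the member values was not tested.

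**Figure D4:**
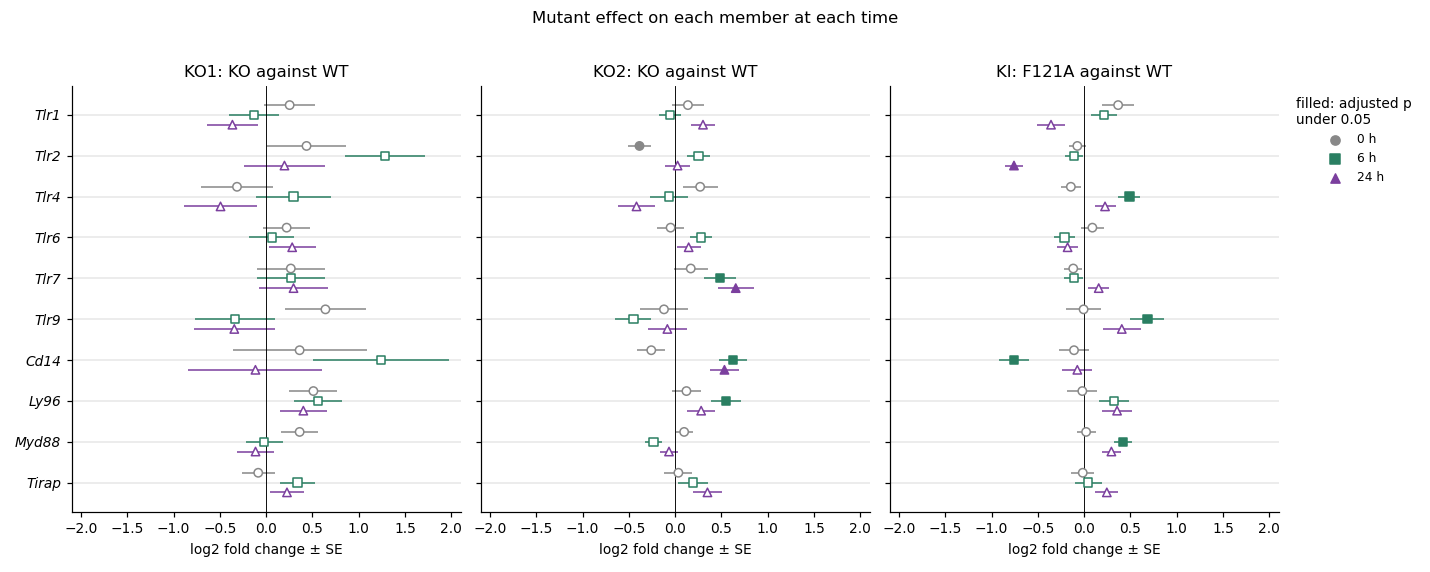
Log2 fold changes of the 10 members, mutant over WT, with standard errors at 0, 6 and 24 h in KO1, KO2 and KI; filled symbols have an adjusted p under 0.05. At 6 h Cd14 lies at 0.63 in KO2 and -0.76 in KI, and Tlr2 at 24 h in KI lies at -0.76.

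Whether the genotype effect changed with time was asked by a joint test. In KO2 it passed for Tlr2 and Cd14 (adjusted p = 0.0273 and 0.00383), 2 of 10 members, beside 11.9% of all genes. The KO effect on Cd14 at 6 h exceeded that at rest by 0.88 ± 0.22 and that on Tlr2 by 0.64 ± 0.18 on the log2 scale. The Cd14 call was lost with libraries summed by number (adjusted p = 0.0782). In KI it passed for Tlr2 and Tlr4 (0.000794 and 0.0217), beside 8.32% of all genes. The F121A effect on Tlr2 at 24 h minus that at rest was -0.68 ± 0.14, and that on Tlr4 at 6 h minus rest 0.63 ± 0.16. The Tlr4 call was lost with no filter (0.0501) and with library totals alone (0.201), and Cd14, not called with all libraries (0.0651), passed without resting F121A library 5 (0.0354). In KO1 edgeR called 0 members (all genes 0%), with 0 at an unadjusted p under 0.05, 0 by DESeq2 and 0 by voom.

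The mutant effects of KO2 and KI were compared in 1 fit at each time. Genotype in KO2 is also sex, and the deletion and the point change were studied in separate cohorts. Allele, sex and cohort therefore cannot be told apart in these differences, for any member. At 6 h the KO2 effect minus the KI effect was 1.41 ± 0.23 for Cd14 on the log2 scale (adjusted p = 2.01e-06), with a mutant effect of 0.63 in KO2 and -0.76 in KI. Tlr9 (-1.11 ± 0.28) and Myd88 (-0.62 ± 0.13) differed the other way, and Tlr6 (0.52 ± 0.17) and Tlr7 (0.62 ± 0.21) were more positive in KO2, which made 5 of 10 members beside 12.2% of all genes. The call of Tlr6 was lost with no filter (adjusted p = 0.102), and that of Tlr7 without the KI WT sample of conflicting labels (0.0618) and with libraries summed by number (0.0520). For X-linked Tlr7, KO2 compares male with female cells, whereas resting cells of KI averaged 103 scaled CPM of Xist in F121A and 126 in WT cells. At 24 h Tlr1 (0.65 ± 0.20) and Tlr2 (0.78 ± 0.17) passed, beside 7.1%, and Tlr1 was lost with no filter (0.0611). At rest edgeR called 0 (all genes 3.87%), with 0 at an unadjusted p under 0.05 and 0 by DESeq2. Between the KO cohorts, KO2 minus KO1, edgeR called 0 members at 0, 6 and 24 h, beside 0.488%, 0.386% and 0.275% of all genes, with 1, 1 and 1 at an unadjusted p under 0.05 and 0, 0 and 0 by DESeq2. The Tlr2 difference at 6 h, -0.99 ± 0.33, was called without KO1 culture S35 or S37 (adjusted p = 0.00228 and 0.00455).

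The other receptors of the family (8 genes listed, 5 or 6 tested) held genes that went opposite ways with time. Tlr3, the sensor of double-stranded RNA, rose in WT cells at 6 h by 2.64 ± 0.55, 2.40 ± 0.28 and 2.04 ± 0.17, and Tlr13, which senses bacterial ribosomal RNA in mice, fell by 3.82 ± 0.37, 3.95 ± 0.21 and 5.41 ± 0.17 in KO1, KO2 and KI. Between genotypes at 6 h, Tlr3 was higher in KO cells of KO2 (1.09 ± 0.23) and in F121A cells of KI (0.58 ± 0.16), with Tlr13 also higher in KO2 (0.68 ± 0.22) and Ly86, which encodes the partner of the TLR4 homologue CD180, in KI (0.42 ± 0.11). That made 2 higher and 0 lower of 5 tested in KO2 and 2 higher and 0 lower of 5 in KI, beside 15.3% and 11.5% of all genes.

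Signalling genes just below the receptors (23 listed) had 1 to 5 genes called between genotypes at each time in KO2 and KI. In KO2 there were 1 higher and 0 lower of 21 at 0 h, 2 higher and 0 lower of 21 at 6 h and 2 higher and 0 lower of 21 at 24 h, beside 8.35%, 15.3% and 11.3% of all genes. Peli1, a ubiquitin ligase of the pathway, was higher in KO cells at each time (0.51 ± 0.11, 0.47 ± 0.10 and 0.91 ± 0.11). In KI there were 1 higher and 0 lower of 23 at 0 h, 3 higher and 2 lower of 23 at 6 h and 1 higher and 0 lower of 23 at 24 h, beside 2.94%, 11.5% and 7.2% of all genes. At 6 h Pik3ap1 (0.49 ± 0.10) and the kinase gene Ikbke (0.48 ± 0.10) were higher in F121A cells, and Irak3, which encodes an inhibitory kinase of the pathway, was lower (-0.43 ± 0.10), as was the TLR4 adaptor gene Ticam2 (-0.47 ± 0.15). In WT cells at 6 h the list held 13 higher and 4 lower of 23 in KO1, 16 higher and 3 lower of 21 in KO2 and 18 higher and 3 lower of 23 in KI, with a median log2 fold change of 0.56, 1.05 and 0.92, beside 56.7%, 70.8% and 73.5% of all genes called.

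Genes for folding, transport and cleavage of the receptors (16 listed) moved in both directions. Hsp90b1, the chaperone that TLRs need to fold, was lower in KO cells of KO2 at 0 and 6 h (-0.59 ± 0.083 and -0.40 ± 0.084) and in F121A cells at 24 h (-0.37 ± 0.079). Unc93b1, the escort of TLR7 and TLR9 to endosomes, was higher in F121A cells at 6 h (0.38 ± 0.11). The protease gene Lgmn was higher in F121A cells at 6 and 24 h (0.67 ± 0.092 and 0.62 ± 0.092), and Ctsl, a cathepsin gene, at 24 h in KO cells of KO2 (0.61 ± 0.12) and in F121A cells (0.49 ± 0.10). In KO2 there were 1 higher and 1 lower of 16 at 0 h, 0 higher and 1 lower of 16 at 6 h and 5 higher and 2 lower of 16 at 24 h, beside 8.35%, 15.3% and 11.3% of all genes. In KI there were 0 higher and 1 lower of 16, 3 higher and 1 lower of 16 and 3 higher and 1 lower of 16 at the same times, beside 2.94%, 11.5% and 7.2% of all genes.

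Genes of LPS handling and brakes on the receptors (18 listed) differed in their mutant effect between KO2 and KI at 6 h. In KO2 there were 1 higher and 6 lower of 16, beside 15.3% of all genes, with Tnip3, an inhibitor of NF-kB, at -0.92 ± 0.092 and the cytokine brake gene Socs1 at -0.76 ± 0.16. In KI there were 7 higher and 0 lower of 17, beside 11.5% of all genes, with Tnip3 at 0.66 ± 0.12 and the phosphatase gene Dusp1 at 1.47 ± 0.15. The list's median log2 fold change was -0.086 in KO2 and 0.42 in KI, against 0.024 and 0.017 over all genes. The KO2 effect minus the KI effect at 6 h was called for 9 of 17 genes (1 more positive and 8 more negative in KO2), beside 12.2% of all genes, with Dusp1 at -1.94 ± 0.19, Tnip3 at -1.54 ± 0.15 and Trafd1 at -0.65 ± 0.12. At 24 h there were 5 higher and 2 lower of 16 in KO2 and 3 higher and 2 lower of 17 in KI, beside 11.3% and 7.2% of all genes, and at 0 h 1 higher and 2 lower of 16 in KO2 and 0 higher and 1 lower of 17 in KI, beside 8.35% and 2.94%. In KO1 edgeR called 0 genes of these 4 lists between genotypes at any time; at an unadjusted p under 0.05 they held 8, 3 and 2 genes at 0, 6 and 24 h, with 0, 0 and 0 called by DESeq2 and 3, 0 and 1 by voom.

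Over the means of the 18 groups, centred within cohorts, the members fell into patterns that are given as a description, since the groups share cohorts and the stimulus. Among 6023 genes, the one most like each member by Pearson r was Plek (0.984) for Tlr1, Tmem171 (0.985) for Tlr6, 5430427O19Rik (0.870) for Tlr2, Adam15 (0.911) for Tlr4, Cxcl3 (0.964) for Cd14 and Gm14446 (0.929) for Ly96. For Tlr7 it was Frmd4a (0.952), for Tlr9 Cnp (0.965), for Myd88 March5 (0.992) and for Tirap Slc27a4 (0.947). Next in order came Nfkbiz and Rap2c for Tlr1, Ncrna00085 and Mfsd7a for Cd14 and Hdac1 and Relb for Myd88. Tlr2 had the lowest best match of the 10. Among the members themselves, Tlr1 was closest to Tlr6 (r = 0.952), which share reads, and to Myd88 (0.949), and Tlr4 ran opposite to Tlr6 (-0.751), Myd88 (-0.746) and Cd14 (-0.713).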

How the data were processed

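RNA of 137 macrophage libraries was sequenced by Smart-Seq2 (oligo-dT priming, paired reads of 38 bases, no strand or molecular barcodes, per the labels' protocols). The authors deposited raw counts per gene symbol, 1 table per cohort, made with TopHat and HTSeq on mm10 per the submitters' processing notes; versions are not given in the sources used here. Genes passing filterByExpr were scaled by TMM and tested in edgeR 4.0.16 (R 4.3.3) by quasi-likelihood, 1 fit per cohort with a mean for each of 6 groups, and 1 fit per pair of cohorts for differences between mutant effects. Repeats of a KO1 culture were summed. Adjusted p-values are Benjamini-Hochberg values taken over all genes tested; standard errors were derived from the fold change and F statistic of each test. All 10 members passed the filter in each cohort.

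The members, the pathway lists and the tests were chosen with earlier results of these data known. The members are given in every comparison; of each pathway list, up to 3 called genes of smallest adjusted p per comparison, or any of 5 or fewer calls. Genes like a member were ranked by Pearson r of mean log2(scaled CPM + 0.5) over 18 groups, among genes tested in every cohort with a mean of at least 3 on that scale. In simulated counts for the 24 h genotype contrast, the test called 23.2% (KO1), 89.00% (KO2) and 81.8% (KI) of 2-fold changes, and 72.2%, 97.98% and 94.8% of 4-fold changes. No library pair of a group looked like a copy (smallest chi-square per degree of freedom 3.22 over 467 pairs). Alternatives were DESeq2 1.42.0, its size factors, a filter of 1 count in all, fits restricted to the groups of a comparison, a block for replicate number, the 2 samples with conflicting time labels left out, each KO1 culture left out, voom on single KO1 libraries (limma 3.58.1), and KO2 and KI libraries summed by number. Library totals without TMM, F121A library 5 at 0 h left out, and KO2 KO libraries 7 (6 h) and 8 (24 h) left out were chosen after seeing the data.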

Additional observations from a re-analysis of the deposited data

Results flagged for a closer look

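In 10 of 120 combinations of a member with a group of KO2 or KI, 1 library stood apart from the others by its gap over the range of the group. Chance does this in about 1 in 20 groups of independent, normally spread values. The combinations share libraries and the values were not on a log scale, so that rate is only a rough guide to the flagged combinations. In KO2 these were Tlr1 in KO2 WT cells at 6 h (library 1 at 102 scaled CPM, above the others at 61.5 to 72.7), Tlr6 in KO2 KO cells at 0 h (library 7 at 9.75 scaled CPM, above the others at 4.87 to 6.96), Tlr7 in KO2 KO cells at 6 h (library 7 at 14.5 scaled CPM, below the others at 32.1 to 47.5) and Tlr7 in KO2 KO cells at 24 h (library 8 at 25.3 scaled CPM, above the others at 9.10 to 15.1). In KI they were Tlr1 in KI WT cells at 0 h (library 6 at 8.26 scaled CPM, above the others at 4.13 to 5.49), Tlr6 in KI F121A cells at 0 h (library 4 at 6.62 scaled CPM, below the others at 8.24 to 8.62), Cd14 in KI F121A cells at 24 h (library 3 at 7949 scaled CPM, above the others at 5909 to 6666) and Tirap in KI WT cells at 6 h (library 5 at 6.42 scaled CPM, below the others at 10.05 to 11.5). Ly96 in F121A cells stood out at both stimulated times, with library 1 at 7.14 scaled CPM, below the others at 12.3 to 14.2 at 6 h, and library 5 at 12.6 scaled CPM, above the others at 8.29 to 9.63 at 24 h.

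Members whose mutant effect differed between times or cohorts are listed here, beside the share of all genes called in each test. By the joint test of genotype by time, Tlr2 (adjusted p = 0.0273) and Cd14 (0.00383) differed in KO2, beside 11.9% of all genes. In KI, Tlr2 (0.000794) and Tlr4 (0.0217) differed, beside 8.32%. Between KO2 and KI at 6 h, the mutant effect differed for Cd14 (adjusted p = 2.01e-06), Myd88 (0.000312), Tlr9 (0.00284), Tlr6 (0.0341) and Tlr7 (0.0385), beside 12.2%. At 24 h it differed for Tlr2 (0.000836) and Tlr1 (0.0302), beside 7.1%. The joint calls of Cd14 and Tlr4 and the calls of Tlr6, Tlr7 and Tlr1 between cohorts were each lost under an alternative given above. How many genes passed any of these tests was not counted.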

How the results depend on the processing

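Over all alternatives, 4182 member values kept their side of the threshold, 78 gained and 94 lost their call. Another 26, called in either setting, changed sign, all of these with library totals in place of TMM. The 4182 include 141 values that changed sign and were called in neither setting. The log2 values of the 26 that turned are as follows. In KO1 they were Tlr2 -0.10, Ly96 -0.27, Tirap -1.23 in KO cells at 6 h against 0 h, Tlr6 -0.21, Ly96 -0.011, Tirap -0.50 in KO cells at 24 h against 0 h, Ly96 -0.012 in WT cells at 6 h against 0 h and Tlr6 -0.27, Tirap -0.78 in WT cells at 24 h against 0 h. In KO2 they were Ly96 -0.068, Tirap -0.57 in KO cells at 6 h against 0 h, Tlr2 -0.35, Tirap -0.036 in KO cells at 24 h against 0 h and Ly96 -0.53, Tirap -0.74 in WT cells at 6 h against 0 h. In KI they were Tlr7 -0.88, Ly96 -0.11 in F121A cells at 6 h against 0 h, Tlr9 -0.74, Ly96 -0.12, Tirap -0.18 in F121A cells at 24 h against 0 h, Tlr6 0.31 in F121A cells at 24 h against 6 h, Tlr7 -0.80, Tlr9 -0.16, Ly96 -0.34 in WT cells at 6 h against 0 h and Ly96 -0.40, Tirap -0.36 in WT cells at 24 h against 0 h. Counts of members called between genotypes moved as follows: in KO1 at 6 h 1 in place of 0 (no filter, and voom), in KO2 at 6 h 5 in place of 3 (library totals, and KO libraries 7 and 8 left out), in KO2 at 24 h 1 in place of 2 (library totals, and libraries summed by number). The joint test gave 1 in place of 2 in KO2 (libraries summed) and 4 in place of 2 in KI (DESeq2, and libraries summed). KO2 minus KI at 24 h gave 1 in place of 2, and KO2 minus KO1 at 6 h 1 in place of 0, with no filter. Leaving out each KO1 culture in turn, WT cells at 24 h against 0 h had 4 to 8 members called, KO cells 2 to 7, and KO2 minus KO1 at 6 h 0 to 1. The cause was not tested. With the replicate number as a block, KI at 24 h gave 2 members in place of 1 (Myd88, adjusted p = 0.0229), and no other count moved by over 1.5 times. Deviations of same-numbered libraries correlated at -0.193 to 0.29 in KO2 and -0.162 to 0.181 in KI, with every r over 0.1 in 0 of 15 pairs of groups in each. In KI, F121A libraries at 24 h and 6 h correlated at 0.0291 to 0.135. Whether same-numbered libraries share an origin is not settled by these values, since KO1 met the same rule in only 3 of 6 pairs. In KO1, where a culture number recurs at 0, 6 and 24 h, r ran from -0.174 to 0.36, every r was over 0.1 in 3 of 6 pairs of times, and every culture correlated best with its own number in 2 of 6; the block also lost Cd14 in KO cells at 24 h against 6 h (adjusted p = 0.0548). Not run were the block for KO1 genotype contrasts, whose cultures differ between genotypes, voom for KO2 minus KO1, and a fit of only the groups compared for the joint test. In KO1, with 3 cultures per group, 23.2% of simulated 2-fold changes were called.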
